A study of Mus musculus with 6 samples.

Results

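The genes described here encode the axonemal dynein arms of motile cilia, the complexes that dock those arms on the microtubule doublets, and the cytoplasmic factors that assemble them. The members were a set list of gene symbols, each taken under whichever of its older or newer names the count files use, and the rule for membership uses no measured value. All 32 symbols were present among the 48577 gene rows: 6 outer arm subunits, 4 outer arm docking proteins, 10 inner arm subunits, 2 proteins of the axonemal ruler and 10 assembly factors. Reads were assigned to 30 of the 32, and all 30 passed the filter on low counts that left 13175 genes for testing.

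RNA was sequenced from EpCAM-positive, CD45-negative lung cells of Miwi2tdTomato reporter mice on the C57BL/6 strain, in which the fluorescent protein tdTomato reports Piwil4, the gene of the Piwi protein MIWI2. Each of 3 mice gave a tdTomato-negative and a tdTomato-positive library, 6 in all, so every library shares the reporter allele. The labels call both fractions multiciliated cells and name only the sort on CD45, EpCAM and tdTomato; the sources used here give neither an age nor a treatment. The comparison asks which transcripts differ between the sorted fractions with and without the reporter. Markers of other lung cell types, given below, were present in both fractions.

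Motile cilia beat because dynein motors anchored on one microtubule doublet walk along its neighbour. Outer arms set the beat frequency and inner arms shape the bend, and each arm is built from very large heavy chains, which hold the motor, with intermediate and light chains. The arms are preassembled in the cytoplasm by dedicated factors and chaperones, carried into the cilium and attached at docking sites. In the airway this machinery drives mucus clearance, and its inherited loss causes primary ciliary dyskinesia.

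Ciliary genes of this kind are widely known as targets of RFX factors, which bind the X-box, and of FOXJ1, a forkhead protein, so the promoters of the members were searched. RefSeq promoters on GRCm38.p6 were matched for 26 of the 32 members, and the 250 bases before each start site were read on both strands. The core GTTGCC of the X-box was found in 7 of these 26 promoters (26.9%), against 10.4% of all 32851 promoters. The 7 include those of Dnah7a, Dnah7b and Dnah7c, which are copies of a single ancestral gene, so they are not 7 independent cases. The paired form, GTTNCC followed after any 2 bases by GNNAAC, in which N is any base and which can overlap the core, was found in 2 of 26 (7.69%), against 0.566% of all promoters. The forkhead core TGTTTAC was found in 0 of 26, against 3.17% of all promoters. A match is a description of these letters in this window and not a measured site. The stretches that follow, each of 100 bases and written along the gene's own strand, are shown because Ccdc151 and Pih1d3 hold the paired form and because Dnaic2, Dnah7a and Dnah7c, described later, carry the core (in Dnaic2 as GGCAAC, the core read on the other strand); capitals mark the X-box letters.
Ccdc151 (chr9:22002635-22002734, minus strand): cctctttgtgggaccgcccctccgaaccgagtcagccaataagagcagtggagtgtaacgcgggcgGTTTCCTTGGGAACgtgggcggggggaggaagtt
Pih1d3 (chr1:31222737-31222836, plus strand): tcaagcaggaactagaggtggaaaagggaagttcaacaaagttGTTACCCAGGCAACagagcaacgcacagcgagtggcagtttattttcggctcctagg
Dnaic2 (chr11:114727319-114727418, plus strand): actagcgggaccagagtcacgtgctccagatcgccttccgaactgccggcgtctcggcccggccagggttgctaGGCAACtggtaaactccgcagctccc
Dnah7a (chr1:53706932-53707031, minus strand): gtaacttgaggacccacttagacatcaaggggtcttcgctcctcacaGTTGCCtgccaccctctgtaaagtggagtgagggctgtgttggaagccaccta
Dnah7c (chr1:46425268-46425367, plus strand): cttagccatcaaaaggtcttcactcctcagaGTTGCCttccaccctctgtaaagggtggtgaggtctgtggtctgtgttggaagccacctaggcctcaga

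Counts in genes were 5330584 to 6326395 per library. Piwil4 was at 29.97 to 45.6 CPM (read counts scaled to a common depth with TMM factors) where tdTomato was absent and at 95.7 to 111 CPM where it was present (edgeR adjusted p = 0.012), and tdTomato itself had 0 reads in the 3 negative libraries and 16 to 37 in the others. Summed over 19 multiciliated markers, the level was 6777 to 7534 CPM in negative libraries, against 7570 to 7989 CPM in positive ones, and by edgeR 0 of the 17 tested were called without the mouse as a block and 3 with it, all higher. The sum over 12 alveolar type 2 markers was 6744 to 8118 CPM against 594 to 1162 CPM, that over 12 club cell markers 4922 to 8452 CPM against 8767 to 22590 CPM, and that over 8 leukocyte markers 176 to 1288 CPM against 29.7 to 216 CPM. The leukocyte sums overlapped, as did those of alveolar type 1 (211 to 263 against 196 to 282 CPM), mesenchymal (24.2 to 121 against 9.53 to 49.3 CPM) and endothelial markers (9.94 to 11.8 against 10 to 27.7 CPM), while basal markers were at 10.1 to 17.5 against 1.01 to 2.06 CPM. By edgeR, 7 of the 12 alveolar type 2 markers fell without the block and 9 with it, and of the 11 tested club cell markers 0 were called without the block and 7 with it. The part of these cells in the dynein values was not tested. In such bulk samples fewer cells of a type and less RNA per cell cannot be told apart.

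Of the 32 dynein arm genes, 30 had reads in every library, and none was called different between the fractions. The 32 members took 1.40% ± 0.124 of all gene counts without tdTomato and 1.65% ± 0.322 with it (SD over 3 libraries), most of it in the 12 heavy chains (1.14% ± 0.102 and 1.33% ± 0.285). By edgeR's quasi-likelihood test, 0 of 30 members passed an adjusted p of 0.05, where 0.622% of all 13175 genes did. With the mouse as a block the count was again 0 of 30, against 3.15% of all genes, and with DESeq2 it was 0 of 30, against 1.86%. At such shares few or none of any 30 genes would be called. The smallest adjusted p of a member was 0.423 without the block, 0.105 with it and 0.402 by DESeq2. At an unadjusted p under 0.05 there were 2 of 30 members (6.67%) without the block, against 10.7% of all genes, and 7 of 30 (23.3%) with it, against 15.9%. The count of called members was also 0 with relative log expression size factors in edgeR (0.622% of all genes called), with library size only (0.577%), with no filter (1.47%), with a stricter filter (0.755%), with DESeq2 and the block (3.52%) and with the block and library size only (6.25%).

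With TMM scaling, the intervals bound the size of a change. For 29 of the 30 members the 95% interval of the log2 fold change (tdTomato-positive over tdTomato-negative) lay within 2-fold in either direction, both without and with the mouse as a block. The exception was Ccdc103, the least abundant detected member, whose interval ran from -0.41 to 1.29. These intervals are per gene and are not adjusted for the number of genes; they left out 0 for 2 members without the block (Ccdc151 and Dnah12) and for 7 with it, the same 2 and Dnaic2, Dnali1, Ccdc39, Dnaaf3 and Zmynd10. The bounds over all 30 members were -0.86 and 1.29, with a median standard error of 0.19 without the block and 0.15 with it. They do not cover the choice of scaling. With library size only, the median estimate of the members was 0.38 in place of 0.11, and that of Ccdc151 was 0.73 in place of 0.48. Intervals under that scaling are not given here, and some may pass 2-fold.

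**Figure D1:**
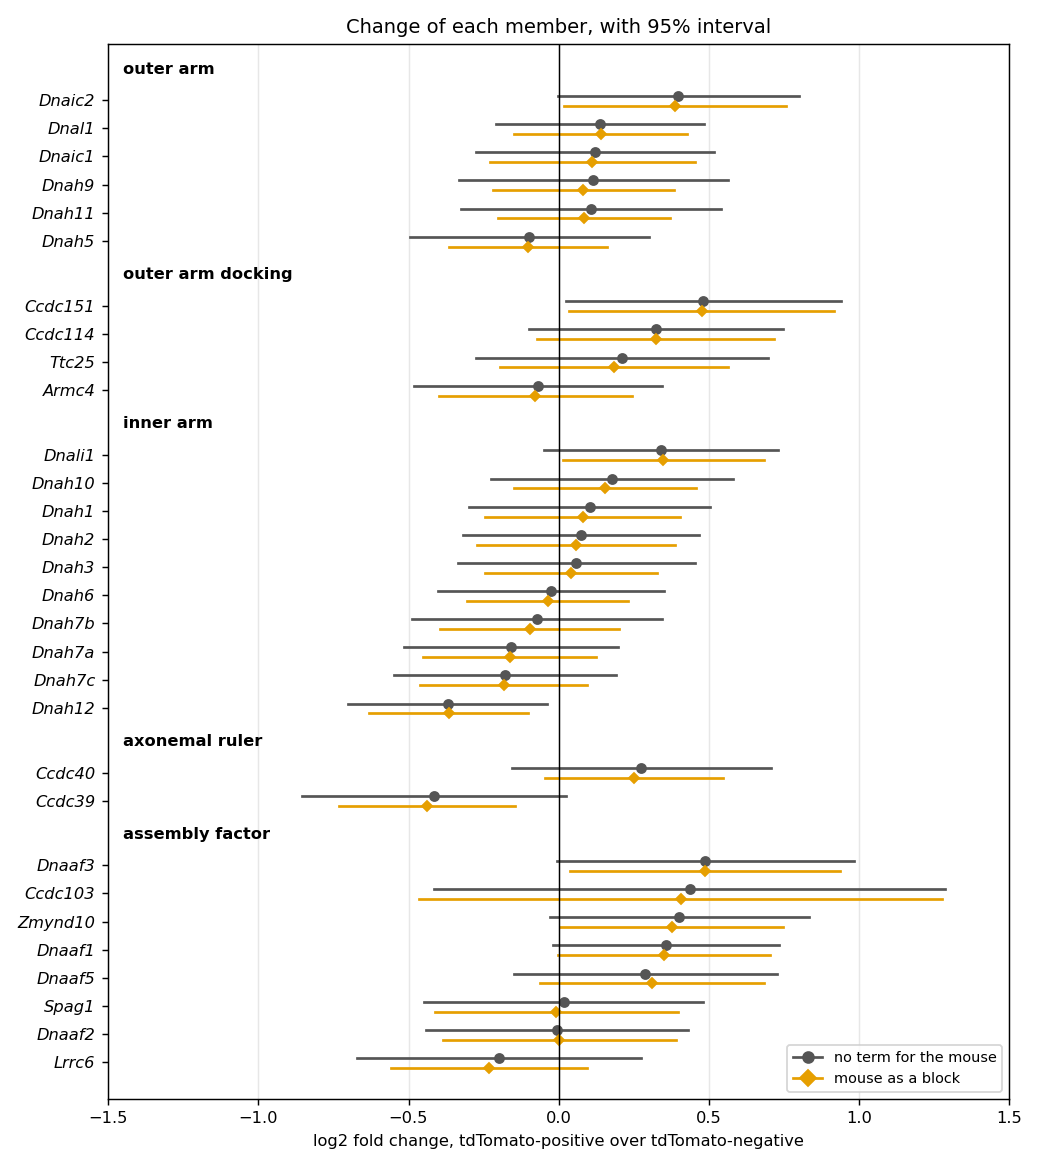
Log2 fold change of each of the 30 detected members, tdTomato-positive over tdTomato-negative (x axis), by role (y axis), with 95% intervals from the edgeR fit without (grey circles) and with (orange diamonds) the mouse as a block. Point estimates lie between -0.42 (Ccdc39) and 0.49 (Dnaaf3) without the block, and Ccdc103 has the widest interval.

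Of the 30 detected members, 20 had a fold change above 0 (66.7%, against 52.7% of all genes), with a median of 0.11 against 0.03 over all genes tested. Scaled by library size only, 28 of 30 lay above 0 (93.3%, against 73.8%), and the median over all genes then stood at 0.29. By role the median was 0.12 for the outer arm (5 of 6 above 0), 0.27 for docking (3 of 4), 0.02 for the inner arm (5 of 10) and 0.32 for the 8 detected assembly factors (6 of 8). The 12 heavy chains had a median of 0.02 and the other 18 detected members one of 0.28, which became 0.28 and 0.54 with library size only. In the positive library of all 3 mice 6 members were higher (20.0%, against 19.8% of all genes) and 4 were lower (13.3%, against 18.8%). All 3 positive libraries lay above all 3 negative ones for 4 members (13.3%, against 8.29% of all genes) and below them for 1 member (3.33%, against 9.02%). The share of members higher in all 3 mice is near that of all genes. Each share over all 3 mice or all 3 libraries is of TMM-scaled values and rests on 1 to 6 members.

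Expressed per kilobase of exon, so that genes can be compared, the members spanned a wide range. Dnah6, an inner arm heavy chain, was the highest, at 234 ± 12.8 CPM per kb without and 230 ± 38.3 CPM per kb with tdTomato (SD over 3 libraries; the same order is kept for the genes that follow). Dnah12, another inner arm heavy chain, followed at 166 ± 13.5 and 129 ± 3.01 CPM per kb, then Ccdc39 of the axonemal ruler at 130 ± 16.9 and 97.3 ± 25.0 CPM per kb and the assembly factor Lrrc6 at 112 ± 14.5 and 97.4 ± 29.5 CPM per kb. By this length Dnah6 stood apart from the next gene by more than these spreads, while Ccdc39, Lrrc6, Dnah3, Dnali1 and Dnah5 overlapped their neighbours in the order. At the low end, Ttc25 of the docking complex was at 10.8 ± 1.30 and 12.4 ± 3.33 CPM per kb, the assembly factor Spag1 at 5.48 ± 0.166 and 5.54 ± 1.28 CPM per kb, and Ccdc103 at 3.31 ± 0.373 and 4.48 ± 1.26 CPM per kb. The order is by the mean over all 6 libraries: Dnah6 and Dnah12 were the highest and Ccdc103 the lowest in both fractions, but with tdTomato Dnali1 (108 CPM per kb) and Dnah3 (99.1 CPM per kb) lay above Lrrc6 and Ccdc39. With the longest transcript as the length in place of all exons, Ccdc39 stood at 234 CPM per kb in place of 114, close to Dnah6 at 243, and 9 of the 10 highest members were among the same 10.

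**Figure D2:**
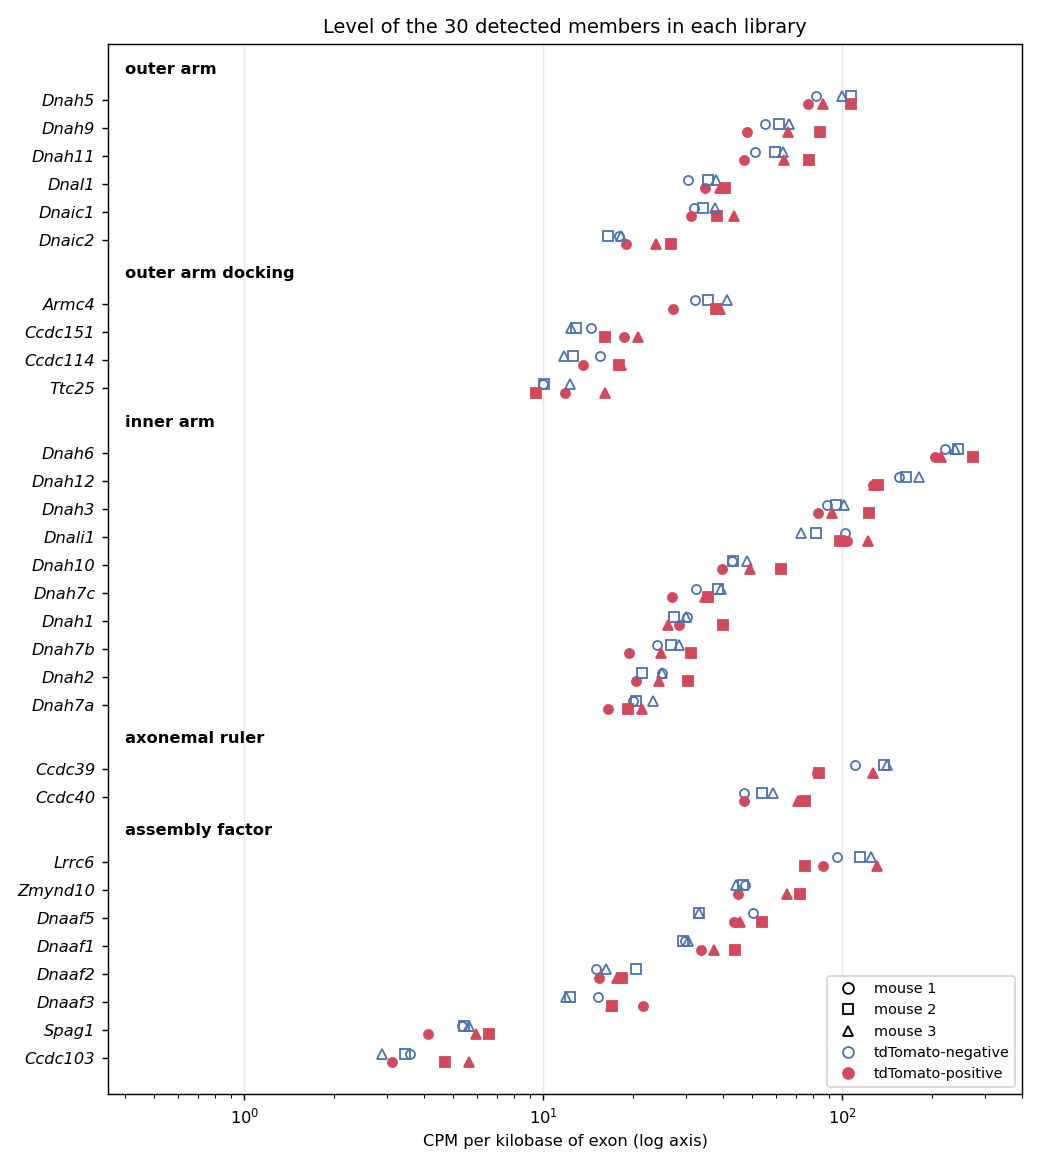
CPM per kilobase of exon (x axis, log scale) of the 30 detected members by role (y axis) in each library, with open blue symbols for tdTomato-negative, filled red symbols for tdTomato-positive and the symbol shape for the mouse. Dnah6 is the highest in each library and Ccdc103 the lowest, and red and blue symbols of most genes interleave.

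Among the outer arm heavy chains, Dnah5 (chromosome 15, 28203752 to 28472052, GRCm38), which runs the length of the airway cilium, measured 1276, 1674 and 1564 CPM in negative libraries of mice 1, 2 and 3, against 1195, 1677 and 1348 CPM in the positive ones, and values of the other genes are given in the same order. The groups overlapped, and mouse 1 was the lowest in both. Its log2 fold change was -0.10 ± 0.18 (SE; 95% interval -0.50 to 0.30; edgeR adjusted p = 0.883). Dnah9, the partner chain of the distal cilium, was at 877, 977 and 1053 CPM against 766, 1337 and 1045 CPM, and Dnah11, the partner chain of the proximal cilium, was at 740, 863 and 916 CPM against 676, 1116 and 921 CPM. In both genes the positive library of mouse 2 was the highest of the 6 and that of mouse 1 the lowest. Their log2 fold changes were 0.12 ± 0.20 and 0.11 ± 0.20 (SE; edgeR adjusted p = 0.875 and 0.881).

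Because Dnah9 and Dnah11 occupy different stretches of the cilium, their levels were also taken as ratios to Dnah5 within each library, which do not depend on scaling between libraries. Per kilobase, the ratio of Dnah9 to Dnah5 was 0.674, 0.572 and 0.660 in negative libraries, against 0.629, 0.782 and 0.760 in positive ones. The ratio of Dnah11 to Dnah5 was 0.627, 0.557 and 0.633 against 0.612, 0.720 and 0.739. Both ratios were higher in the positive library of mice 2 and 3 and lower in that of mouse 1. The mean log2 difference was 0.18 for Dnah9 and 0.19 for Dnah11 (two-sided exact permutation p = 0.3 for each of these 2 ratios, where 3 against 3 libraries cannot go below 0.1). Paired within mice, the exact sign-flip p was 0.5 for each, where 3 pairs cannot go below 0.25. Outer arm chains made up 24.1% ± 1.17 of the heavy chain level per kilobase without tdTomato and 25.2% ± 1.69 with it (SD over 3 libraries).

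The smaller outer arm subunits lay lower per kilobase than the heavy chains. Dnaic2, an intermediate chain that every outer arm needs (chromosome 11, 114727408 to 114757889), was at 82.1, 75.3 and 83.1 CPM against 86.1, 122 and 109 CPM. All 3 positive libraries lay above the negative ones, by little in mouse 1. Its log2 fold change of 0.40 ± 0.18 was the highest of the outer arm genes (SE; 95% interval -0.003 to 0.80, and 0.02 to 0.76 with the block; edgeR adjusted p = 0.47, and 0.288 with the block). The other intermediate chain, Dnaic1, was at 88.5, 94.9 and 105 CPM against 87.0, 106 and 120 CPM, with overlap. The light chain Dnal1 was at 212, 247 and 263 CPM against 241, 281 and 271 CPM, also with overlap, although it was higher in the positive library of each mouse.

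The 4 docking proteins place the outer arm on the doublet. Ccdc151 (chromosome 9, 21989871 to 22002634) was at 36.3, 32.3 and 31.2 CPM against 46.8, 40.5 and 51.9 CPM. The groups did not overlap. On the log2 scale the fold change was 0.48 ± 0.21 (SE; 95% interval 0.02 to 0.94; edgeR adjusted p = 0.44, and 0.271 with the block). Armc4 (chromosome 18, 7088209 to 7297936), the most abundant of the 4 per kilobase, was at 132, 146 and 169 CPM against 112, 156 and 160 CPM. Those values overlapped, and the estimate on the log2 scale was -0.07 ± 0.19 (SE; edgeR adjusted p = 0.92). Ccdc114, the partner of Ccdc151 in the docking complex, was at 94.1, 76.5 and 71.2 CPM against 82.8, 109 and 111 CPM, lower in the positive library of mouse 1 and higher in those of mice 2 and 3. Ttc25 was at 61.1, 61.9 and 75.3 CPM against 72.5, 58.2 and 98.6 CPM, with mouse 2 the one in which the positive library was lower.

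Among inner arm subunits, Dnah12 (chromosome 14, 26693274 to 26891703), a heavy chain of a single-headed arm, was at 1854, 1957 and 2171 CPM against 1514, 1584 and 1533 CPM. With TMM scaling it was the only member whose positive libraries all lay below the negative ones. The lower level depends on that scaling: with library size only the log2 estimate was -0.11 (edgeR adjusted p = 0.786). On the log2 scale the fold change was -0.37 ± 0.15 (SE; 95% interval -0.70 to -0.04; edgeR adjusted p = 0.423, 0.137 with the block and 0.402 by DESeq2). Dnah6 (chromosome 6, 73017606 to 73221651), a heavy chain of the same class, was at 2914, 3238 and 3162 CPM against 2698, 3631 and 2821 CPM. Its groups overlapped, with an estimate on the log2 scale of -0.03 ± 0.17 (SE; edgeR adjusted p = 0.97). Dnali1, the light intermediate chain p28 of single-headed arms (chromosome 4, 125055338 to 125065703), was at 218, 174 and 155 CPM against 221, 210 and 260 CPM. It was higher in the positive library of each mouse, although the negative library of mouse 1 lay above the positive one of mouse 2. The fitted log2 change was 0.34 ± 0.18 (SE; 95% interval -0.05 to 0.73, and 0.01 to 0.68 with the block; edgeR adjusted p = 0.537, and 0.29 with the block).

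Dnah2 and Dnah10, the heavy chains of the double-headed inner arm, were at 319 to 375 and 686 to 771 CPM in the negative libraries. In the positive libraries Dnah2 was at 305, 455 and 364 CPM and Dnah10 at 638, 1001 and 792 CPM. In both, the positive library of mouse 2 was the highest and that of mouse 1 the lowest. Dnah1 was at 395, 358 and 393 CPM against 371, 519 and 340 CPM, and Dnah3 at 1274, 1366 and 1443 CPM against 1182, 1754 and 1315 CPM. The log2 fold changes of Dnah1, Dnah2, Dnah3 and Dnah10 were 0.06 to 0.18, with edgeR adjusted p from 0.765 to 0.928.

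Dnah7a, Dnah7b and Dnah7c are near-identical mouse copies of a single ancestral inner arm heavy chain, and their counts are uncertain. Of the 50-base windows in their longest transcripts, 40.3%, 48.4% and 48.5% also occur in a transcript of another gene, mostly of another copy. HTSeq leaves reads aligned to several places uncounted, so such reads may be missing from all 3. As counted, Dnah7a was at 254, 261 and 297 CPM against 210, 244 and 273 CPM, Dnah7b at 480, 533 and 570 CPM against 386, 622 and 496 CPM, and Dnah7c at 408, 483 and 493 CPM against 339, 447 and 437 CPM. With TMM scaling, Dnah7a and Dnah7c were lower in the positive library of each mouse, and Dnah7b in those of mice 1 and 3. The direction depends on that scaling: with library size only the log2 estimates were 0.101 for Dnah7a, 0.195 for Dnah7b and 0.09 for Dnah7c. With TMM factors their log2 fold changes were -0.16 ± 0.16, -0.07 ± 0.19 and -0.18 ± 0.17 (SE; edgeR adjusted p = 0.761, 0.915 and 0.741).

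**Figure D3:**
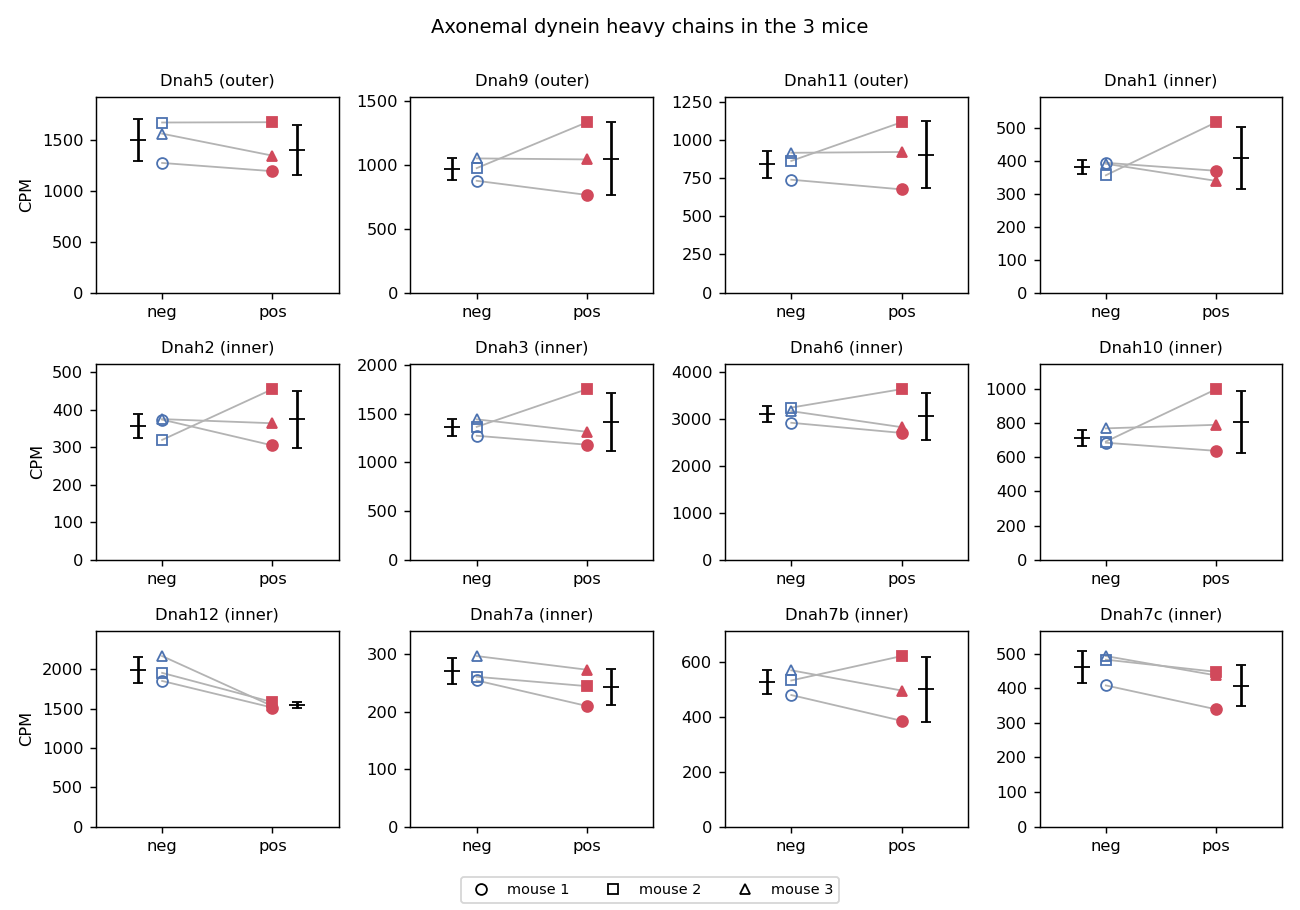
CPM (y axes, from 0) of the 12 axonemal dynein heavy chains in tdTomato-negative (open blue) and tdTomato-positive (filled red) libraries, with grey lines joining the libraries of 1 mouse and black bars for mean ± SD (n = 3). With TMM scaling, Dnah12 is the panel in which the 2 groups do not overlap. The positive library of mouse 2 is the highest for 9 of 12 chains, an order not counted over all genes.

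The ruler proteins Ccdc39 and Ccdc40 form a pair that sets the spacing of arms and spokes along the doublet. Ccdc39 (chromosome 3, 33812362 to 33844310) was at 822, 1028 and 1049 CPM against 613, 620 and 939 CPM. With TMM scaling it was lower in the positive library of each mouse, and the groups overlapped through mouse 3. With library size only its log2 estimate was -0.15. The fitted log2 change was -0.42 ± 0.20 (SE; 95% interval -0.86 to 0.02, and -0.73 to -0.14 with the block; edgeR adjusted p = 0.5, and 0.105 with the block, the smallest of any member in that fit). Ccdc40 (chromosome 11, 119228572 to 119265238) was at 283, 324 and 353 CPM against 282, 451 and 428 CPM, equal in mouse 1 and higher in the positive library of mice 2 and 3. For Ccdc40 the fitted log2 change was 0.27 ± 0.20 (SE; edgeR adjusted p = 0.646), so the estimates of the 2 partners differed in sign; the difference between them was not tested. Of the 50-base windows of Ccdc39, 29.6% also occur in Ttc14, which overlaps it on the opposite strand, and the reads of such genes cannot be told apart without a stated strand setting.

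Assembly factors are the cytoplasmic proteins that fold and join arm subunits before transport. Dnaaf3 (chromosome 7, 4522933 to 4532453) was at 34.0, 27.3 and 26.5 CPM against 48.0, 37.7 and 37.5 CPM. The groups did not overlap, and the log2 difference was 0.49, 0.46 and 0.49 in mice 1, 2 and 3. Its log2 fold change of 0.49 ± 0.23 was the highest of all members (SE; 95% interval -0.01 to 0.98, and 0.04 to 0.94 with the block; edgeR adjusted p = 0.475, and 0.268 with the block). Dnaaf1, a leucine-rich repeat protein, was at 83.8, 82.6 and 86.2 CPM against 95.1, 124 and 105 CPM, again without overlap (log2 fold change 0.36 ± 0.17, SE; edgeR adjusted p = 0.498). Dnaaf1 shares 20.7% of its exon bases with Taf1c on the opposite strand, and Dnaaf3 shares 16.5% with other annotated genes, so both counts are uncertain.

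Lrrc6 (chromosome 15, 66379858 to 66500910), the most abundant assembly factor per kilobase, was at 201, 238 and 260 CPM against 180, 157 and 273 CPM. It was lower in the positive library of mice 1 and 2 and slightly higher in that of mouse 3, with an estimate on the log2 scale of -0.20 ± 0.21 (SE; edgeR adjusted p = 0.776). Zmynd10, which acts with Lrrc6, was at 101, 99.3 and 93.6 CPM against 95.4, 154 and 139 CPM, close to the negative library in mouse 1 and higher in mice 2 and 3 (log2 fold change 0.40 ± 0.20, SE; 95% interval -0.03 to 0.83, and 0.01 to 0.74 with the block; edgeR adjusted p = 0.508, and 0.303 with the block). Dnaaf5, a HEAT-repeat protein, showed the same order, at 177, 117 and 117 CPM against 152, 189 and 160 CPM. Spag1 and Dnaaf2, which work with chaperones, were at 59.6 to 63.2 and 50.6 to 69.2 CPM against 45.8 to 73.3 and 51.9 to 62.2 CPM. For Ccdc103 the counts were 35, 34 and 28 against 35, 56 and 67, too few to narrow its interval.

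No read was assigned to Pih1d3 or Dyx1c1 in any library, which allows up to 0.475 to 0.585 CPM by counting error alone. For Dyx1c1 this says little about expression, since 96.6% of its exon bases are shared with another annotated gene, 59.2% with Gm44503 on the same strand, which also had 0 reads, and HTSeq sets aside reads that fall in 2 genes. Pih1d3 is the symbol of a short gene on chromosome 1 (31222838 to 31224288), while a related gene on the X chromosome is listed as Pih1h3b. That gene, which lies outside the member list and was looked up after the zero was seen, had 107, 108 and 171 reads against 137, 94 and 170. The estimate was a log2 value of -0.20 ± 0.31 (SE; edgeR adjusted p = 0.847). Dnaaf2 also shares 71.4% of its exon bases with other genes, so its count is a partial one.

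The direction differed between mice. Within mouse 1, 8 of 30 members were higher in the positive library (26.7%, against 49.4% of all genes), within mouse 2 the count was 23 of 30 (76.7%, against 51.4%), and within mouse 3 it was 18 of 30 (60.0%, against 51.5%). For the 12 heavy chains the median log2 difference was -0.16, 0.29 and -0.15 in mice 1, 2 and 3, with 0, 9 and 2 of them above 0. For the other 18 detected members it was -0.01, 0.30 and 0.33. The positive library of mouse 1 was the lowest of the 6 for 11 of 12 heavy chains, and that of mouse 2 the highest for 9 of 12. The same orders were not counted over all genes, and the chains share the same libraries. These counts are therefore not a result about heavy chains. These signs and orders are of values scaled with TMM factors. As a share of gene counts, without those factors, the summed heavy chains took 1.12%, 1.05% and 1.25% in negative libraries of mice 1, 2 and 3. In the positive ones they took 1.06%, 1.62% and 1.30%. By that share mouse 3 rose slightly, and the negative library of mouse 2 was the lowest. Without the positive library of mouse 2 the median fold change over all 30 members was -0.05, and over all 9 unblocked ways of leaving out 1 library or mouse it ran from -0.05 to 0.22. The heavy chain median ran from -0.15 (without mouse 2) to 0.13 (without the positive library of mouse 1); it was -0.14 without the positive library of mouse 2, and also below 0 without the negative library of mouse 1 (-0.03) or mouse 2 (-0.0005).

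Among the members, transcript length moved with these differences in mice 1 and 3 but little in mouse 2. Heavy chain transcripts are over 12 kb long, and the 156 other genes tested with transcripts of at least 12 kb had median log2 differences of -0.19, 0.05 and -0.19 in mice 1, 2 and 3. In mice 1 and 3 the heavy chains (-0.16 and -0.15) therefore lay close to other genes of their length, while in mouse 2 they lay above them (0.29 against 0.05). The 12 members of 2 to 4 kb had medians of 0.00, 0.30 and 0.33, against 0.01, 0.01 and 0.08 in 5171 other genes of that length. Over the 30 members, Spearman's rho between transcript length and log2 difference was -0.35, -0.07 and -0.77 in mice 1, 2 and 3, against -0.08, 0.06 and -0.16 over 12742 genes. These are descriptions across genes that share a library. The 12 heavy chains are also the only members of at least 12 kb, so length and being a heavy chain cannot be told apart among members. With an offset for the length trend of each library, the median fold change of the heavy chains was 0.09 in place of 0.02 and that of the other 18 was 0.27 in place of 0.28. As without the offset, 0 of 30 members were called (0.683% of all genes; 3.50% with the block). Length as a cause was not tested.

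**Figure D4:**
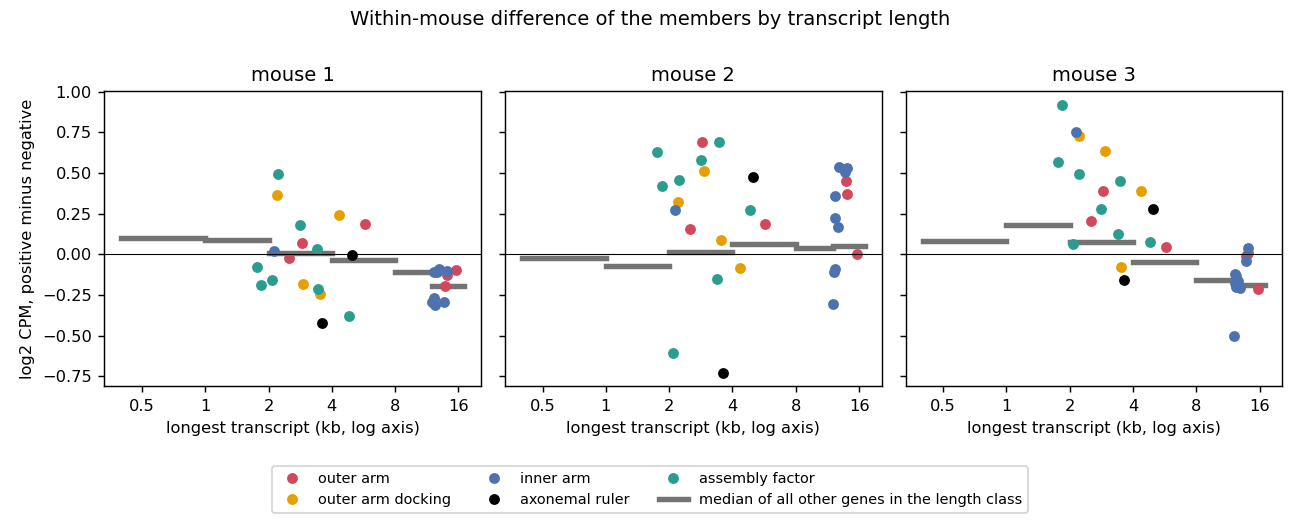
Log2 CPM of the positive minus the negative library (y axis) of the 30 detected members against the length of the longest transcript in kb (x axis, log scale), 1 panel per mouse, with points coloured by role and grey bars for the median of all other genes in each length class. In mouse 3 the short members lie mostly above 0 and the heavy chains at the right mostly below it, whereas in mouse 2 most heavy chains lie above 0.

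The rest of the dynein machinery gave the same counts of calls. A further 50 genes of the pathway cover other axonemal chains, assembly and transport factors, the nexin link and cytoplasmic dynein, and 46 of them were tested. By edgeR 0 passed without the block (0.622% of all genes did) and 0 with it (3.15%). By DESeq2 0 passed as well (1.86%). At an unadjusted edgeR p under 0.05 there were 8 without the block (17.4%, against 10.7% of all genes) and 12 with it (26.1%, against 15.9%). Their median log2 fold change was 0.27, with 33 of 46 above 0 (71.7%, against 52.7% of all genes). It ran from -1.09 for Dnah8 (edgeR adjusted p = 0.425) to 1.76 for Pih1d1 (edgeR adjusted p = 0.306). Pih1d1 had few reads, with 16, 6 and 5 against 30, 50 and 31. The nexin link protein Ccdc65, chosen after its values were seen, was at 65.3 ± 4.36 CPM against 90.2 ± 6.89 CPM (SD over 3 libraries; edgeR adjusted p = 0.355, and 0.176 with the block). Dnah8 and Dnah17, heavy chains known from sperm, were barely present, at 0.118 to 0.516 and 0.0687 to 0.733 CPM per kb over the 6 libraries. The cytoplasmic heavy chains Dync1h1, of the general transport motor, and Dync2h1, of intraflagellar transport, were at 17.6 to 31.6 and 36.9 to 53.9 CPM per kb, within the range of the axonemal chains.

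Foxj1, the transcription factor that switches on motile cilium genes, was at 484, 138 and 116 CPM against 870, 402 and 270 CPM. It was higher in the positive library of each mouse, with log2 differences of 0.84, 1.54 and 1.22 in mice 1, 2 and 3. The fitted log2 change was 1.06 ± 0.74 without the block (SE; edgeR adjusted p = 0.665) and 1.20 ± 0.15 with it (SE; edgeR adjusted p = 0.000129). Under the block, where the Foxj1 change passed the threshold, the 30 dynein members had a median of 0.08 and 0 passed (3.15% of all genes did). Foxj1 does not stand for the multiciliated markers. Its estimate without the block was the highest of the 17 tested, which ran from -0.30 to 1.06 with a median of 0.17. With the block their median was 0.19, and Foxj1 was among the 3 called.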

How the data were processed

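Each library has 1 file of whole-number read counts by gene symbol, as the authors deposited it. The tools STAR 2.4.2a, HTSeq, cutadapt 1.7.1, DESeq2 and FastQC are listed, beside mm10 and GRCm38.p4 as genome builds, without their roles or order, in the submitters' processing notes; the summary rows at the end of each file are HTSeq's. The strand setting and annotation release are not given in the sources used here. Per the labels' protocols, Trizol RNA was amplified before library construction, so reads are not independent molecules, and the floors for 0 reads cover counting error only. HTSeq's 5 summary rows were left out: reads in no gene were 45.8% ± 4.31 (negative) and 45.9% ± 3.03 (positive), ambiguous reads 1.44% ± 0.222 and 1.94% ± 0.0462, and multiply aligned reads 10.3% ± 0.567 and 10.3% ± 1.89 (SD, n = 3 each).

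CPM with TMM factors, log2 fold changes and two-sided p-values came from the quasi-likelihood test of edgeR 4.0.16 (R 4.3.3; filterByExpr, count minimum 10; Benjamini-Hochberg over 13175 genes), without a mouse term. Libraries of 1 number come from the same mouse per the labels, so the numbers pair the samples (correlations of deviations from group means 0.263, 0.254 and 0.346), and the fit with the mouse as a replicate block is given beside counts of called members and wherever its interval, and not that of the other fit, leaves out 0. Within-mouse differences used a prior count of 2. DESeq2 1.42.0 was an alternative, and an offset for transcript length (loess, span 0.5) and 3 other fits were added after seeing the data. Exon lengths and positions are from GENCODE M21 on GRCm38. The tests were checked on simulated data with changes of 2-fold or more. Every member estimate without the block was smaller, and that check does not cover changes of such a size.

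Named by rule were members called in either fit (0) and, in each role of at least 4 members, those with the highest and lowest fold change and the highest level per length; other per-library values were added afterwards. The rule for membership uses no measured value, but members and lists were chosen with earlier results of these data known. Their shares and medians may therefore not be free of selection.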

Additional observations from a re-analysis of the deposited data

How the results depend on the processing

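No member passed the threshold under any of the 22 alternatives: other scalings, no filter or a stricter one, DESeq2, the replicate block, each library or mouse left out, and the length offset. The smallest adjusted p of a member in any of them was 0.0613, with the replicate block and library size only. The block changed no call of a member.

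The count over all genes did move. It was 82 (6 higher and 76 lower), 413 with no filter, 245 with DESeq2, 415 with the replicate block (all 82 among them), 461 with the replicate block and the transcript length offset, 464 with DESeq2 and the replicate block, and 823 with the replicate block and library size only (641 higher). With library size only it split into 22 higher and 54 lower, with no filter into 167 and 246, with DESeq2 into 56 and 189, and with the block into 179 and 236. Leaving out 1 library or mouse gave 22 to 113 calls without the block (22 without mouse 1, 30 without mouse 2, 23 without mouse 3, 34 without the negative library of mouse 1, 42 and 43 without those of mice 2 and 3, and 47, 74 and 113 without the positive library of mice 3, 2 and 1). With the replicate block, leaving out mouse 1, 2 or 3 gave 633, 380 and 59. The cause was not tested.

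The mean log2 difference of the ratio of Dnah9 to Dnah5 was 0.11 to 0.28 and that of Dnah11 to Dnah5 0.13 to 0.27 when 1 library was left out. Depth limits Ccdc103, at 28 to 67 reads per library. Shared sequence limits the Dnah7 copies, Dnaaf2 and Dyx1c1, and to a lesser degree Ccdc39, Dnaaf1, Dnaaf3 and other members.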
